A study of Mus musculus with 6 samples.

Results

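Class 3 semaphorins, the neuropilins and the A plexins were followed in mouse embryonic fibroblasts that lack Zmpste24, the protease that processes prelamin A to lamin A. The 10 members were Sema3a, Sema3b, Sema3c, Sema3d, Sema3e and Sema3f, the neuropilin genes Nrp1 and Nrp2, and the plexin genes Plxna1 and Plxna2. They were chosen by symbol, and all 31 probe sets that carry one of these symbols alone were taken, of 45037 probe sets on the array without controls. All 31 passed the filter on dim signal described below, as did 27022 probe sets in all. RNA came from 3 Zmpste24-/- and 3 wild-type (Zmpste24+/+) cultures, all labelled C57BL/6, grown from E13.5 embryos and collected at passage 3, and 1 array was hybridised per culture. How the allele was made, and which litters the embryos came from, the labels do not say. The cultures are numbered 1 to 3 in each genotype, and the labels speak of pairs of cultures without saying which cultures form a pair.

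Class 3 semaphorins are the secreted members of the semaphorin family. Most of them bind a neuropilin, a receptor with a short cytoplasmic tail that holds an A plexin in the complex, and the plexin passes the signal to small GTPases and the cytoskeleton of the receiving cell. They are known for repelling or attracting growing axons and migrating neural crest and endothelial cells, and embryonic mesenchyme is one of their sources. Sema3e differs from the rest in binding the plexin Plxnd1 without needing a neuropilin. Neuropilins also bind members of the VEGF family.

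Promoter sequence is shown for the ligands with higher signals in Zmpste24-/- cultures, Sema3c and Sema3d, and for Sema3e and Nrp2, a ligand and a receptor gene that differed widely, and in opposite directions, between culture numbers. The sequences are RefSeq's, assembly GRCm38.p6, each 300 bases of the plus strand that run from 250 bases before to 50 bases after the gene's start. Capitals mark the GC box GGGCGG, the CCAAT box CCAAT and the TATA box TATAAA, on either strand.
Sema3c chr5:17574566-17574865: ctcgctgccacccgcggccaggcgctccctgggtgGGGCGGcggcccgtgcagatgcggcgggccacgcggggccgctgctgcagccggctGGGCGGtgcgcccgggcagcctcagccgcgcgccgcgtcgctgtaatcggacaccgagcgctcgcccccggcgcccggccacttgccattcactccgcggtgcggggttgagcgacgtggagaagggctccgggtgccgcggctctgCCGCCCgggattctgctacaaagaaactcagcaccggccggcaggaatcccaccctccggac
Sema3d chr5:12382916-12383215: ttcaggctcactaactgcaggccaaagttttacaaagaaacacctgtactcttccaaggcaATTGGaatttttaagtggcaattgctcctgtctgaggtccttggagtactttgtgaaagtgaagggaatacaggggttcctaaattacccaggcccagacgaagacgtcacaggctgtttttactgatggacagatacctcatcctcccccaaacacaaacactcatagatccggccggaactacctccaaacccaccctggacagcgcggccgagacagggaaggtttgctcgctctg
Sema3e chr5:14025026-14025325: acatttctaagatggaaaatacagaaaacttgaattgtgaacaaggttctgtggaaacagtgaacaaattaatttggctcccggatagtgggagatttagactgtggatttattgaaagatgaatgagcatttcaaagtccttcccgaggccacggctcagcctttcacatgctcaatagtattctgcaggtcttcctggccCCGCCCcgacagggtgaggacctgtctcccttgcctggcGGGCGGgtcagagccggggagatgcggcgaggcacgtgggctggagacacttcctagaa
Nrp2 chr1:62703067-62703366: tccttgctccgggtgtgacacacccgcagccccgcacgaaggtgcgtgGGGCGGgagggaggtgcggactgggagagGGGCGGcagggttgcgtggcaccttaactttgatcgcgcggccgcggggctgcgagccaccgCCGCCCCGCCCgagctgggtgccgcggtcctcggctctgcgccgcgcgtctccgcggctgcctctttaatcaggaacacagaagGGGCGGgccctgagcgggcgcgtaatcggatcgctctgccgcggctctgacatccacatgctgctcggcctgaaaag
The Sema3c window held 3 GC boxes and the Nrp2 window 5, of which 1 pair overlaps, and the Sema3e window held 2. The Sema3d window held none and was the only window of the 4 with a CCAAT box. None of the 4 held TATAAA. Of 27025 promoters of the same length, 35.9% held GGGCGG, 37.9% held CCAAT and 14.2% held TATAAA. The Sema3c and Nrp2 windows were also rich in CpG dinucleotides, at 42 and 37, where the median promoter had 7 and the Sema3d and Sema3e windows had 8 and 11. Sema3a, Sema3c, Sema3d and Sema3e all lie on chromosome 5, where Sema3a is the next protein-coding gene after Sema3d.

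Median signal per array lay between 56.1 and 70.3 in the authors' linear units. Zmpste24 itself averaged 258 ± 95.7 in Zmpste24-/- cultures and 2714 ± 989 in wild-type cultures (SD, n = 3 each). Both arrays numbered 1 stood apart, with correlations of 0.927 to 0.934 to the other arrays across probe sets, against 0.98 to 0.987 among those 4. Xist, the RNA of the inactive X chromosome, had 6669, 4766 and 6660 in Zmpste24-/- cultures 1, 2 and 3, against 5324, 69.3 and 43.7 in wild-type cultures 1, 2 and 3, and the Y-linked Eif2s3y had 14.6, 10.4 and 15.7, against 1.5, 531 and 1341. The genotypes thus differ widely in these transcripts in numbers 2 and 3 and not in number 1. Sex and genotype cannot be told apart in those numbers. The fibroblast markers Col1a1, Col1a2, Col3a1, Pdgfra, Thy1 and Vim summed to 76488 to 81521 in Zmpste24-/- cultures and 78833 to 86124 in wild-type cultures. Of these, Thy1 did not overlap between genotypes, at 9878, 9950 and 8486 in Zmpste24-/- cultures 1, 2 and 3, against 12815, 10788 and 10933 in wild-type cultures 1, 2 and 3. Among all tested probe sets 3.03% were lower in Zmpste24-/- without overlap. Of 7 endothelial markers, Pecam1, Tie1 and Cdh5 were too dim to test, at no more than 18.1, 10.6 and 41.7. Emcn lay at 257 to 614 in Zmpste24-/- and 243 to 296 in wild type and Kdr at 91.7 to 263 in Zmpste24-/- and 128 to 203 in wild type. Tek and Esam reached at most 80.3 and 67.9. In such bulk RNA, fewer cells of a type and less RNA per cell cannot be told apart.

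Sema3c and Sema3d were the members with higher signals in all 3 Zmpste24-/- cultures than in any wild-type culture, and neither passed the threshold across the array. No member probe set did: limma's test without a block called 0 of 31, as it called 0 of all 27022 (0%), at a Benjamini-Hochberg adjusted p under 0.05. At an unadjusted p under 0.05 it counted 3 of the 31, both Sema3c probe sets and 1 of Sema3d, against 1.29% of all probe sets. The genotypes did not overlap for the same 3, all higher in Zmpste24-/-, where 2.22% of all probe sets were higher without overlap and 3.03% were lower. The adjusted p was 0.9999 for every member probe set. Zmpste24 itself was not called by this fit (limma without a block, adjusted p = 0.987). With the replicate number as a block it was called (limma, adjusted p = 4.02e-05). The lack of a call without a block therefore does not show that a gene is unchanged. Differences below are log2(signal + 16), Zmpste24-/- minus wild type, and SE is limma's from the fit without a block.

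Sema3c, a guidance cue that in mice is required to divide the outflow tract of the heart, was measured by 2 probe sets. The brighter, 1429348_at, had signals of 3251, 1887 and 1889 in Zmpste24-/- cultures 1, 2 and 3, against 1557, 1316 and 1510 in wild-type cultures 1, 2 and 3. The groups do not overlap, and Zmpste24-/- culture 1 lies far above the rest. Its mean was 2342 ± 787 in Zmpste24-/- and 1461 ± 127 in wild type (SD, n = 3 each), a log2 difference of 0.63 (SE 0.24). The same-numbered ratios, Zmpste24-/- over wild type, were 2.09, 1.43 and 1.25 in numbers 1, 2 and 3. Without Zmpste24-/- replicate 1 the difference was 0.37, and it was 0.42 in numbers 2 and 3 alone.

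The dimmer Sema3c probe set, 1420696_at, had 322, 264 and 303 in Zmpste24-/- cultures 1, 2 and 3, against 138, 209 and 234 in wild-type cultures 1, 2 and 3. Its groups do not overlap either, and here wild-type culture 1 is the low one. The log2 difference was 0.60 (SE 0.23), with 1.14, 0.32 and 0.35 in numbers 1, 2 and 3. The probe sets thus had like mean differences, both largest in number 1, and without wild-type replicate 1 this one gave 0.39. In numbers 2 and 3 alone it gave 0.33.

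Sema3d, known for guiding axons in zebrafish and for patterning pulmonary veins in mice, had the smallest p of the members. Its brighter probe set, 1429459_at, had 258, 240 and 294 in Zmpste24-/- cultures 1, 2 and 3, against 135, 131 and 185 in wild-type cultures 1, 2 and 3. Every Zmpste24-/- culture was above every wild-type culture, and the ratios were 1.91, 1.83 and 1.59 in numbers 1, 2 and 3. The mean was 264 ± 27.1 in Zmpste24-/- and 150 ± 29.9 in wild type (SD, n = 3 each), a log2 difference of 0.76 (SE 0.20, limma unadjusted p = 0.00728). With the replicate number as a block the adjusted p was 0.256, against 0.289 and 0.454 for the Sema3c probe sets. The difference was 0.68 to 0.90 with any 1 culture left out and 0.71 in numbers 2 and 3 alone.

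The dimmer Sema3d probe set, 1453148_at, had 73.7, 79.2 and 40.04 in Zmpste24-/- cultures 1, 2 and 3, against 44.3, 27.4 and 41.3 in wild-type cultures 1, 2 and 3. These signals lie near the filter limit of 39.4. Its groups overlap, since in number 3 the genotypes had almost the same signal, and the log2 difference was 0.56 (SE 0.29). Number 1, in which both genotypes had high Xist, gave 0.86 and 0.57 for the brighter and dimmer Sema3d probe sets and 1.05 for the brighter Sema3c one. That is 1 culture per genotype, and the part of sex in these differences was not tested.

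**Figure D1:**
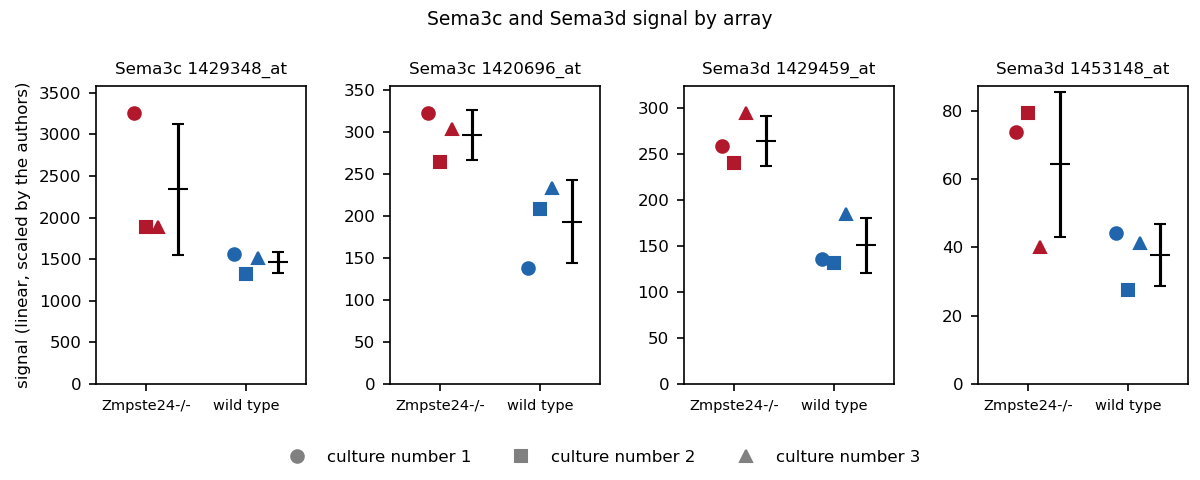
Signal of the 2 Sema3c and 2 Sema3d probe sets (vertical axis, linear units) in Zmpste24-/- and wild-type cultures, with 1 symbol per culture number and the mean and SD of 3 cultures beside each group. The groups separate in both Sema3c panels and in the first Sema3d panel, and overlap in the last.

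Markers of other cells also differed within number 1. The 6 macrophage markers (Cd68, Csf1r, Adgre1, C1qa, C1qb and Lyz2) summed to 11116 in Zmpste24-/- culture 1 and 6006 in wild-type culture 1, while in numbers 2 and 3 they summed to 1082 and 1079 in Zmpste24-/- and 1244 and 1648 in wild type. Their part in the Sema3c and Sema3d values of number 1 was not tested. The 6 neural and neural crest markers on the array summed to 2600, 3136 and 2614 in Zmpste24-/- cultures 1, 2 and 3, against 1190, 3201 and 2749 in wild-type cultures 1, 2 and 3. Of these 6, Fabp7 did not overlap between genotypes, at 289, 228 and 198 in Zmpste24-/-, against 115, 127 and 195 in wild type. Among all probe sets 2.22% were higher in Zmpste24-/- without overlap. The other neural markers overlap, with log2 differences from -0.15 (Sox10) to 0.87 (Stmn2), and Nes and Tubb3 at 0.05.

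Genes whose values over the 6 arrays ran closest to the brighter Sema3d and Sema3c probe sets were found by the mean absolute difference of centred log2 values, among 13037 other genes. For Sema3d they were Gcnt1, Tmem125 and Fam227b, at mean differences of 0.0652, 0.0943 and 0.111 log2 units. Gcnt1, which encodes a glycosyltransferase of mucin-type glycans, had 144, 125 and 155 in Zmpste24-/- cultures 1, 2 and 3, against 76.6, 58.1 and 95.3 in wild-type cultures 1, 2 and 3. For Sema3c they were Arhgef26, Cacna1a and Sdk2, at 0.113, 0.113 and 0.117. Arhgef26 shared the high Zmpste24-/- culture 1, with 188, 103 and 89.0 in Zmpste24-/-, against 89.5, 86.1 and 86.4 in wild type.

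Sema3b, a ligand studied in people as a candidate tumour suppressor, was higher in Zmpste24-/- in every same-numbered pair by its brightest probe set, 1448415_a_at. It had 288, 77.3 and 69.3 in Zmpste24-/- cultures 1, 2 and 3, against 207, 45.4 and 33.3 in wild-type cultures 1, 2 and 3. Culture 1 was the high one in both genotypes, so the groups overlap, and the log2 difference was 0.61 (SE 0.72). With the replicate block the SE was 0.18 and the adjusted p 0.443. The difference was 0.02 without Zmpste24-/- replicate 1 and 1.29 without wild-type replicate 1. The other Sema3b probe sets did not repeat this, at 0.12 (1431795_a_at) and -0.23 (1416644_a_at).

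Sema3a, first known for collapsing growth cones in chick, showed little difference between genotypes. Its brightest probe set, 1420416_at, averaged 677 ± 115 in Zmpste24-/- and 680 ± 176 in wild type (SD, n = 3 each), a log2 difference of 0.02, and the others gave 0.14 and 0.18. Sema3e had log2 differences of 0.02 to 0.32 over 4 probe sets. Sema3f, a ligand that acts mainly through Nrp2, had 0.16, -0.09 and -0.08 over 3 probe sets. The spread among a gene's own probe sets was therefore as wide as these differences. All groups overlap for these 3 ligands.

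The receptor genes had smaller mean differences by their brightest probe sets than Sema3c and Sema3d, and none passed the test. Nrp1, the main neuropilin for Sema3a and a co-receptor for VEGF, averaged 4692 ± 686 in Zmpste24-/- and 4435 ± 930 in wild type (SD, n = 3 each) by its brightest probe set, 1448943_at, a log2 difference of 0.09 (SE 0.19). Its other bright probe sets gave 0.02 and 0.05, and the dim 1457198_at gave 0.29. With the replicate block the SE of the 3 bright Nrp1 probe sets was 0.06, 0.06 and 0.08. Nrp2 averaged 2160 ± 833 in Zmpste24-/- and 1921 ± 689 in wild type (SD, n = 3 each) by 1435349_at, a log2 difference of 0.16 (SE 0.34, and 0.07 with the block). The next Nrp2 probe sets gave 0.07 and 0.06, and the dim 1447343_at gave 0.61.

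Plxna1 and Plxna2 encode the plexins that carry the signal of the neuropilin complex into the cell. Plxna1 averaged 897 ± 85.9 in Zmpste24-/- and 912 ± 146 in wild type (SD, n = 3 each) by 1428623_at, a log2 difference of -0.02 (SE 0.18). The dim Plxna1 probe set, 1421232_at, gave 0.43. Plxna2 had 373, 236 and 273 in Zmpste24-/- cultures 1, 2 and 3, against 356, 176 and 191 in wild-type cultures 1, 2 and 3 by 1455037_at. It was higher in each same-numbered pair and the groups overlap, with a log2 difference of 0.31 (SE 0.31, and 0.14 with the block). With 1 culture left out it lay between 0.13, without wild-type replicate 2, and 0.61, without wild-type replicate 1. The other Plxna2 probe sets gave 0.10, 0.33 and -0.09.

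Over the family, small positive differences outnumbered negative ones. Of 31 probe sets, 26 were higher on average and 5 lower in Zmpste24-/-, against 13214 higher and 13808 lower of all 27022. The members' median log2 difference was 0.16, where the median over all tested probe sets was 0.00. In every same-numbered pair 13 of the 31 were higher, against 15.8% of all probe sets, and 0 were lower, against 16%. By brightest probe set 5 of the 10 genes were higher in every pair (Sema3b, Sema3c, Sema3d, Nrp2 and Plxna2), against 15.8% of 13038 genes, and 0 were lower, against 16.2%. Probe sets of 1 gene share their transcript and the same 6 cultures served every gene, so these counts describe these cultures. With the replicate block limma also called 0 of the 31, against 0.0185% of all probe sets, and 4 had an unadjusted p under 0.05 (both Sema3c probe sets and the brightest of Sema3b and Sema3d), against 8.99%. All 4 were higher in Zmpste24-/-, against 4.59% of all probe sets, and 0 were lower, against 4.41%.

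**Figure D2:**
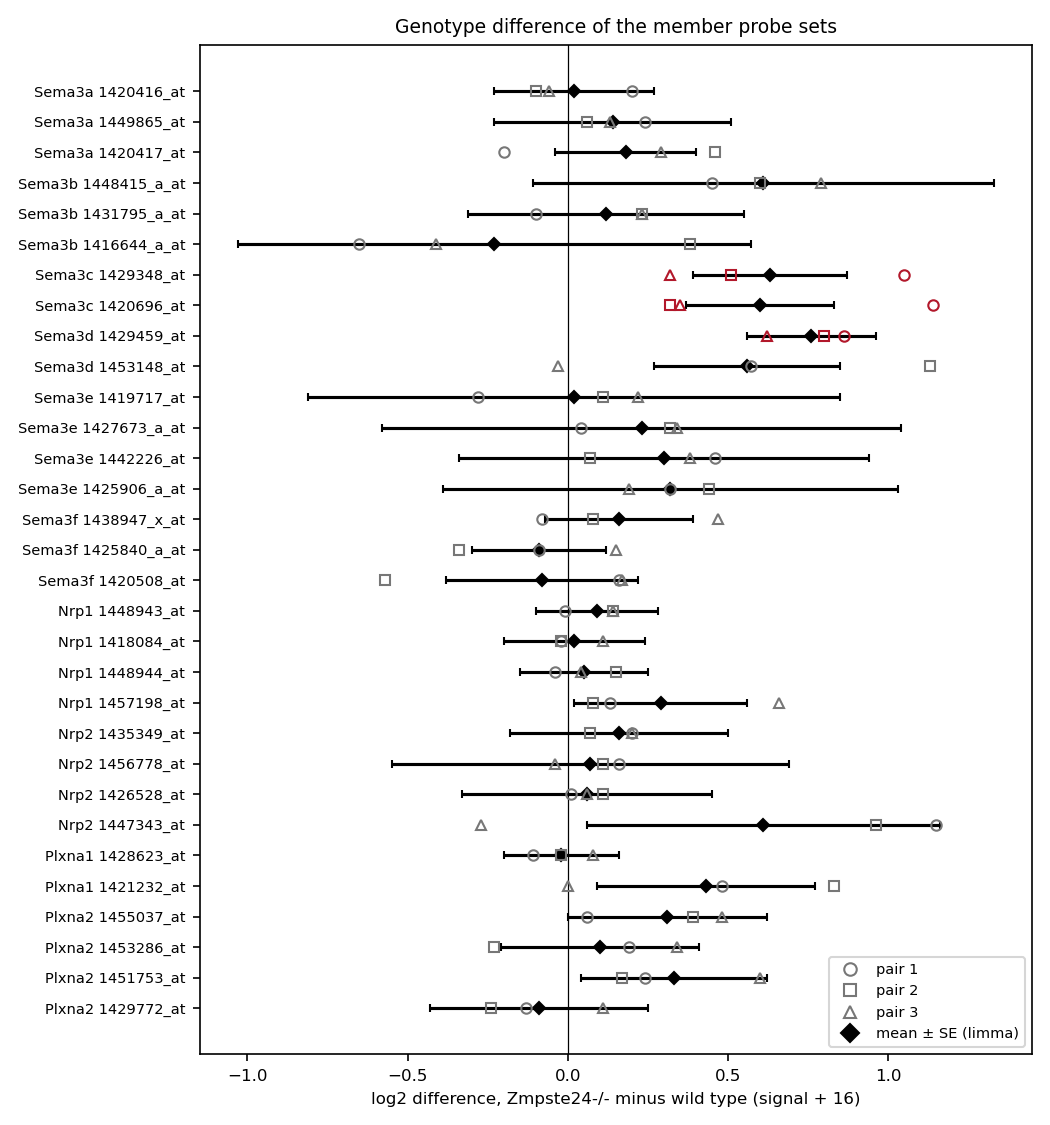
Log2 difference of signal + 16, Zmpste24-/- minus wild type (horizontal axis), for all 31 member probe sets, ordered from bright to dim within each gene. Black diamonds are the mean with limma's SE without a block and open symbols the same-numbered pairs. Red symbols mark the 3 probe sets whose genotypes do not overlap.

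More member probe sets passed the test between culture numbers than between genotypes. An F test over the 3 culture numbers in limma, with genotype in the fit, called 18 of 31 member probe sets at an adjusted p under 0.05, against 41.6% of all 27022. By brightest probe set it called 6 of the 10 genes, against 47% of 13038, so the members' share lies near that of the array as a whole. Of all 31, 11 were called with both arrays numbered 1 above the other 4, against 21.2% of the 27022, and 7 were called with both below, against 18.5%. Among called probe sets alone, number 1 was the higher on average in 61.1% of the members' and 53.9% of the array's. After median centring of the arrays, which lowered the differences of number 1 from numbers 2 and 3 by 0.13 in the median, the called probe sets of the array were higher in number 1 in 41.8%, and those of the members in 9 of 16. Between numbers 2 and 3 alone, limma called 0 of the 31 members (0.0592% of all probe sets), and 2 had an unadjusted p under 0.05, against 7.47%. Differences below are log2(signal + 16), number 1 minus the mean of numbers 2 and 3, over both genotypes.

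Sema3e had the largest differences among the ligands that were lower in number 1. By 1419717_at, Zmpste24-/- cultures 1, 2 and 3 had 78.1, 434 and 554, and wild-type cultures 1, 2 and 3 had 98.0, 401 and 472. Both number 1 cultures lie far below the other 4, whatever the genotype. The log2 difference was -2.21 (limma F test, adjusted p = 5.9e-05). The other 3 Sema3e probe sets gave -2.17, -1.83 and -1.67, so all 4 moved alike. Plxnd1, the plexin that binds Sema3e, had 368, 197 and 223 in Zmpste24-/- cultures 1, 2 and 3, against 200, 253 and 156 in wild-type cultures 1, 2 and 3. It was not called between numbers (adjusted p = 0.317, limma F test). The genes closest to Sema3e over the 6 arrays, named after their values were seen, were Ect2, Anln and Fbxo5, which encode proteins of cytokinesis and mitotic entry, at mean differences of 0.0916, 0.105 and 0.109 log2 units.

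Sema3a was lower in number 1 as well. By 1420416_at it had 556, 690 and 785 in Zmpste24-/- cultures 1, 2 and 3, against 482, 739 and 818 in wild-type cultures 1, 2 and 3, a log2 difference of -0.53 (limma F test, adjusted p = 0.0123). A second probe set, 1449865_at, gave -0.90, and the dim 1420417_at gave -0.26 and was not called. The call of 1420416_at did not hold with wild-type culture 1 left out (-0.39, adjusted p = 0.12), with wild-type culture 3 left out (-0.51, adjusted p = 0.0589) or without an intensity trend (adjusted p = 0.0579), and that of 1449865_at held in every alternative that kept all 3 numbers.

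Sema3b went the other way. The values of its brightest probe set, given above, were 248 on average in number 1 and 56.3 in numbers 2 and 3, a log2 difference of 1.89 (limma F test, adjusted p = 4.05e-04). The other probe sets, 1431795_a_at and 1416644_a_at, gave 1.0 and 2.03 and were called too, but without wild-type replicate 1 neither was (0.83 and 1.71). The call of 1431795_a_at was also lost with no filter (limma F test, adjusted p = 0.0637). It was lost too with wild-type culture 2 (0.96) or Zmpste24-/- culture 1 (1.16) left out. Outside number 1, 1416644_a_at lay at 7.74 to 22.3, under the filter limit of 39.4. Sema3f was above the other arrays in number 1 by all 3 probe sets, at 0.42, 0.32 and 0.62, and none of them passed (adjusted p of 0.0622 to 0.170). Leaving out a single culture brought 1420508_at past the threshold in 2 cases (wild-type culture 2, 0.80, adjusted p = 0.0147, and Zmpste24-/- culture 2, 0.43, adjusted p = 0.039) and 1438947_x_at in 2 (Zmpste24-/- culture 1, 0.60, adjusted p = 0.0359, and Zmpste24-/- culture 3, 0.54, adjusted p = 0.0282). For Sema3c and Sema3d the number made no call, with adjusted p of 0.0655 to 0.681. Leaving out wild-type culture 1 brought the brighter Sema3c probe set past the threshold (0.78, adjusted p = 0.00165), as did leaving out wild-type culture 3 (0.58, adjusted p = 0.0335).

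Both neuropilins were called higher in number 1, each by its 3 brightest probe sets. Nrp2 by 1456778_at had 3429, 1081 and 975 in Zmpste24-/- cultures 1, 2 and 3, and 3076, 1002 and 1004 in wild-type cultures 1, 2 and 3. The number 1 cultures had about the same signal as each other and stood well above the rest, with a log2 difference of 1.66 (limma F test, adjusted p = 1.9e-05). The brightest Nrp2 probe set gave 0.86 and 1426528_at gave 0.96, both called. The dim 1447343_at gave 1.06 and was not called (limma F test, adjusted p = 0.0766). Nrp1 by 1448943_at had 5469, 4439 and 4168 in Zmpste24-/- cultures 1, 2 and 3, and 5499, 4028 and 3777 in wild-type cultures 1, 2 and 3. Its log2 difference was 0.42 (adjusted p = 0.00273), and the 2 next bright probe sets gave 0.48 and 0.41. The dim 1457198_at gave 0.27, overlapped between number 1 and the others, and was not called (limma F test, adjusted p = 0.0956). Without an intensity trend 1448943_at and 1448944_at were not called (adjusted p of 0.0733 and 0.0808), and 1448944_at was also not called after median centring (0.28, adjusted p = 0.0724) or with wild-type culture 1 left out (0.34, adjusted p = 0.127).

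Beside these values, the macrophage markers were above the other arrays in number 1 in 6 of 6, against 31.2% of all probe sets. Their sums were 6006 to 11116 in number 1 and 1079 to 1648 in the other cultures, and C1qa was at most 9.02 outside number 1. The endothelial markers did not share this pattern, since their sums were 538 to 867 in number 1 and 621 to 711 in the others, with 0 of 7 above the other arrays in number 1. Of the 6 fibroblast markers, Col3a1 and Pdgfra were above the other arrays in number 1 (log2 differences of 0.66 and 0.80). Col1a1 and Vim were below them (-0.22 and -0.16). Of the 6 neural and neural crest markers, 2 were above and 2 below. The part of any of these cells in the neuropilin values was not tested. Skeletal muscle markers summed to 506 to 774 in number 1 and 2048 to 4256 in the others. Epithelial markers summed to 471 to 545 in number 1 and 895 to 1388 in the others. Below the other arrays in number 1 were 2 of 4 muscle markers, Des and Acta1, and 1 of 4 epithelial ones. Among all tested probe sets 27.2% were so, while both lists of 4 include markers too dim to test. Most of each fall lay in 1 gene, Acta1 (means of 460 in number 1 and 2736 in the others) and Krt18 (122 and 722). Epcam had the higher mean in number 1, at 300 against 252. The muscle markers Myod1 and Myog and the epithelial marker Cdh1 were too dim to test, at no more than 48.2, 34.1 and 19.2. The part of any muscle or epithelial cells in the lower Sema3a and Sema3e values was not tested.

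The A plexins were mixed. Plxna2 was higher in number 1 by 1455037_at (0.71, limma F test, adjusted p = 0.0119) and by 1453286_at (0.65, 0.0320), and its dim probe set 1429772_at gave 0.77 without passing. That dim probe set did pass with a pseudocount of 64 or without an intensity trend (limma F test, adjusted p of 0.0493 and 0.0302). The remaining Plxna2 probe set, 1451753_at, gave the opposite sign, -0.64 (adjusted p = 0.0333), with 136, 203 and 265 in Zmpste24-/- cultures 1, 2 and 3, against 113, 179 and 170 in wild-type cultures 1, 2 and 3. Without wild-type replicate 1 none of these 3 calls held (adjusted p of 0.15, 0.0933 and 0.0946), and with no filter those of 1453286_at and 1451753_at were lost (0.085 and 0.0882). Quantile normalization, median centring or no intensity trend also undid the call of 1453286_at (limma F test, adjusted p of 0.0584, 0.0558 and 0.0695). So did leaving out Zmpste24-/- culture 1 (0.59) or 2 (0.53). That of 1451753_at was also lost without an intensity trend (0.0566) or a genotype term (0.0708, limma F test, adjusted p). It was lost too without Zmpste24-/- culture 1 (-0.56) or 3 (-0.54). The probe sets of this gene therefore disagree, and the part of the transcript that each reads is unknown here. Plxna1 gave 0.29 and 0.51 and was not called.

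**Figure D3:**
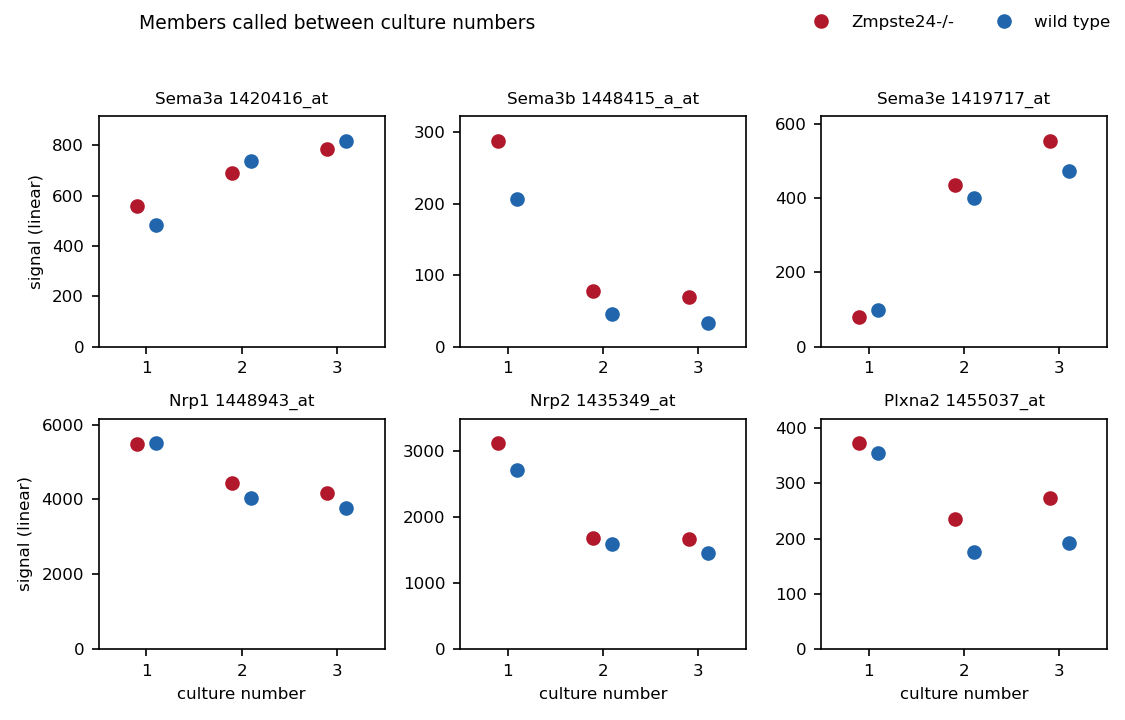
Signal (vertical axis, linear units from 0) by culture number for the brightest probe set of the 6 members called between culture numbers, Zmpste24-/- in red and wild type in blue. Sema3a and Sema3e are low in number 1 of both genotypes, while Sema3b, Nrp1, Nrp2 and Plxna2 are high there.

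**Figure D4:**
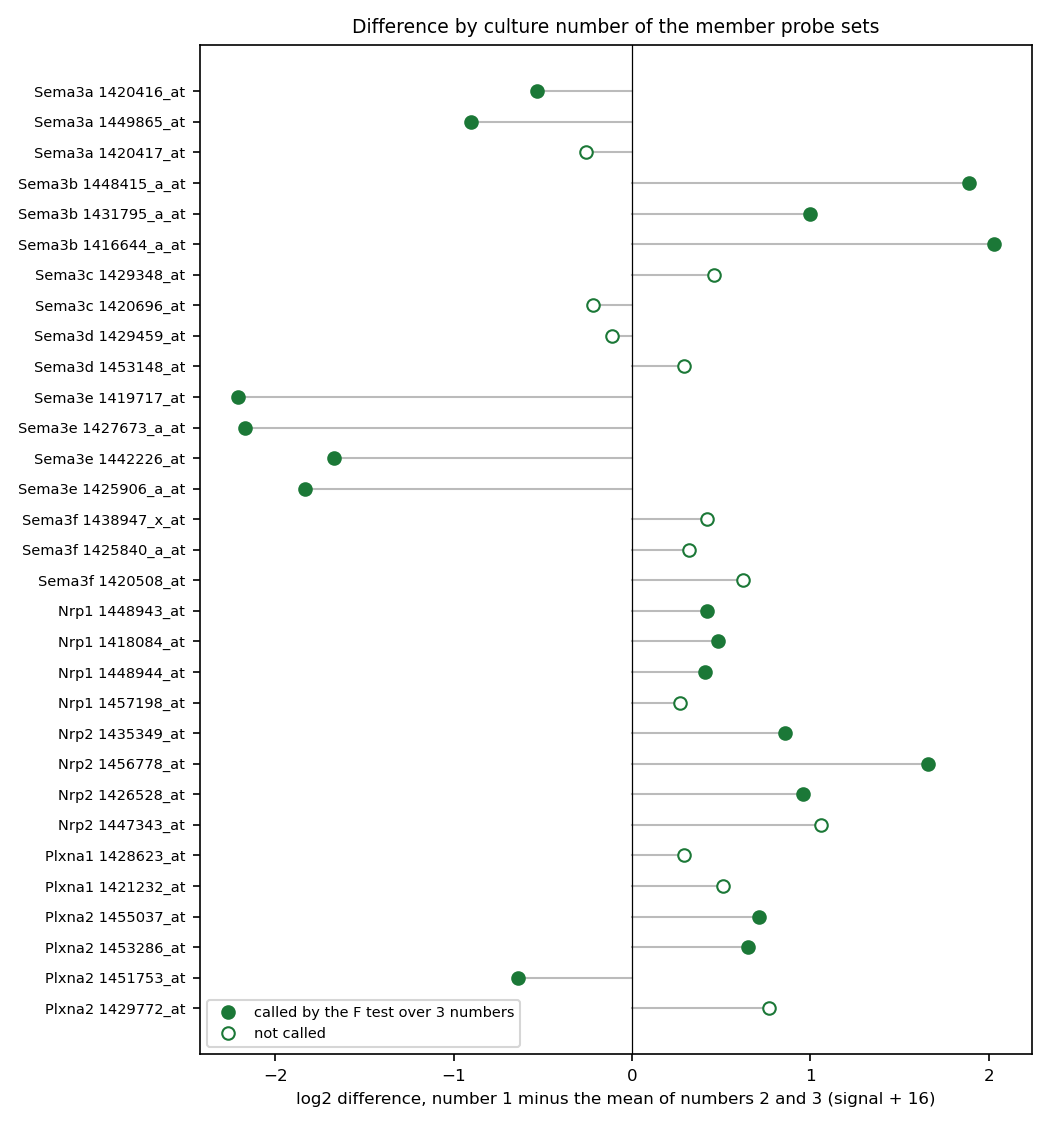
Log2 difference of signal + 16, number 1 minus the mean of numbers 2 and 3 (horizontal axis), for the 31 member probe sets. Filled circles are the 18 probe sets called by the F test over 3 culture numbers. All 4 Sema3e probe sets lie at -1.67 or below, and 1 Plxna2 probe set lies opposite to the rest of its gene.

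Other genes of the pathway were read by their brightest probe set, in lists of related semaphorins, plexins, co-receptors, VEGF ligands, signal transducers and processing enzymes. On the array 74 listed genes had a probe set of their own and 71 were tested, of which limma called 0 between genotypes, also where the replicate number was a block. At an unadjusted p under 0.05 limma counted 0 without the block, against 135 of all 13038 genes. With the block it counted 14, against 9.30% of genes. Of the 71, 31 were higher and 40 lower in Zmpste24-/-, with a median log2 difference of -0.05. Of all 13038 tested genes, 6394 were higher and 6644 lower. The class 3 semaphorin Sema3g was too dim to test, with a mean of 29.0 over the arrays, and the plexins Plxna3 and Plxna4 differed by -0.07 and -0.23.

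Among semaphorins of other classes, which are mostly bound to the membrane, 9 of 12 tested were lower and 3 higher, with a median of -0.23. Sema5a had 203, 115 and 162 in Zmpste24-/- cultures 1, 2 and 3, against 270, 180 and 177 in wild-type cultures 1, 2 and 3, a log2 difference of -0.36 (SE 0.27). All 3 same-numbered pairs were lower in Zmpste24-/-, with overlapping groups. Sema7a, which is anchored by a lipid, differed by -0.32 and the transmembrane Sema6b by -0.37. Among the other plexins and plexin-domain genes 6 of 7 were higher, with a median of 0.16. Plxnb3, the plexin that binds Sema5a, had 134, 87.2 and 98.0 in Zmpste24-/-, against 103, 38.4 and 61.9 in wild type, a difference of 0.60 (SE 0.33). Plxdc2 and Plxnd1 differed by 0.28 and 0.32. None of these passed the adjusted threshold.

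Co-receptors were split, 5 higher and 6 lower of 11, with a median of -0.01. Flt1, a VEGF receptor, had 204, 486 and 595 in Zmpste24-/- cultures 1, 2 and 3, against 719, 714 and 698 in wild-type cultures 1, 2 and 3. The groups do not overlap, and Zmpste24-/- culture 1 is the lowest by far. The log2 difference was -0.83 (SE 0.38, adjusted p = 0.449 in limma with the replicate block), with -1.74, -0.54 and -0.22 in numbers 1, 2 and 3. Met, the receptor of hepatocyte growth factor and a partner of plexins, differed by -0.39, and the integrin subunit Itgb1 by -0.15. Of 5 VEGF ligands, 4 were lower and 1 higher, with a median of -0.20, among them Vegfb at -0.22, Vegfd at -0.21 and Vegfc at 0.19.

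The signal transducers had 11 higher and 16 lower of 27 tested, with a median of -0.05. Limk1 and Limk2, the kinases that inhibit cofilin, differed by -0.40 and -0.30, and Mical2, an oxidase of actin, by -0.43. Limk1 had 371, 650 and 452 in Zmpste24-/- cultures 1, 2 and 3, against 534, 740 and 658 in wild-type cultures 1, 2 and 3. All 3 genes, named for their small p with the replicate block, were lower in each same-numbered pair and none passed the adjusted threshold. Of the 27 transducers, 7 were lower in every pair, against 16.2% of all genes, and 4 were higher, against 15.8%. Fes, a kinase downstream of plexins, and Mical3 were the transducers whose genotypes do not overlap, at 0.39 and -0.35, and are named after their values were seen. The processing enzymes had 5 higher and 2 lower of 7, with a median of 0.05, among them Adamts1 at 0.24, Adam10 at 0.11 and Adam17 at 0.12. Over all listed genes, groups without overlap were 1 higher and 2 lower of 71, where 2.10% and 2.65% of all genes were so.

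**Figure D5:**
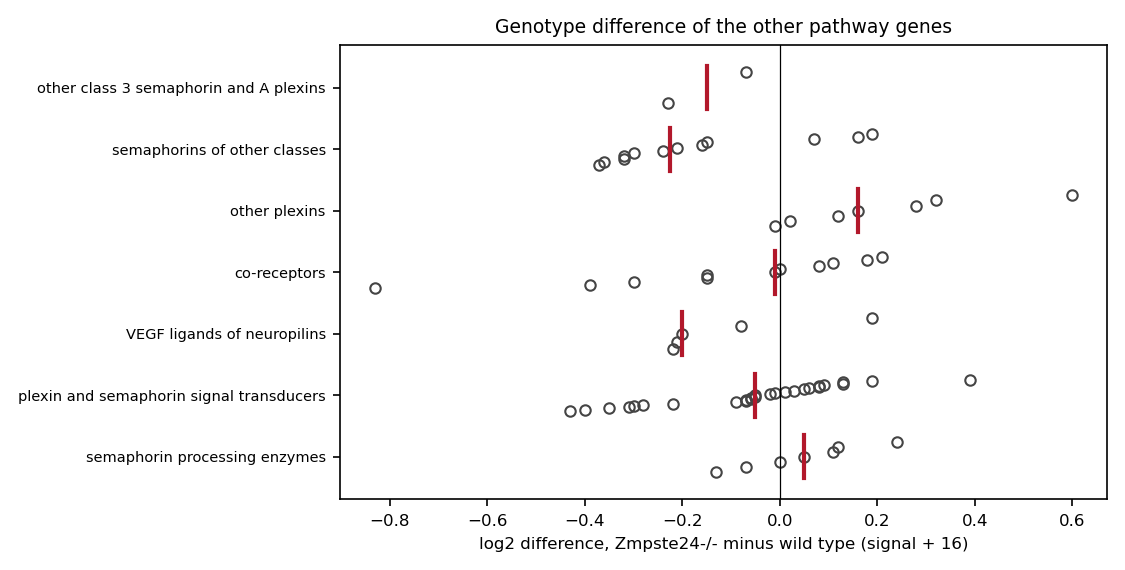
Log2 difference of signal + 16, Zmpste24-/- minus wild type (horizontal axis), for the tested genes of 7 lists, 1 circle per gene by its brightest probe set and a red bar at each list's median. The semaphorins of other classes have a median of -0.23 and the other plexins one of 0.16, and Flt1 at -0.83 is the lowest gene.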

How the data were processed

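RNA of 6 cultures was measured on 6 Affymetrix mouse arrays. Each deposited value is a probe set's intensity on a linear scale, which the authors computed with GCOS, per the submitters' processing notes. The GCOS version and options: not given in the sources used here. All arrays have the same mean of 500.0 after 2% of values is trimmed at each end, so a change in total RNA per cell cannot be seen. The number of arrays limits the precision. Symbols came from the platform annotation, checked by gene ID against RefSeq (assembly GRCm38.p6): 34945 probe sets have 1 symbol, 932 have several and 9160 have none listed, and 34741 of those with 1 symbol matched by identifier. No build is named in the labels, so genome positions are given only for RefSeq's own promoter sequences, which matched 7 of the 10 members.

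Values were taken as log2(signal + 16), so that changes of dim genes are understated. A filter removed the 40% of probe sets with the lowest mean over all arrays, under a signal of 39.4. Genotypes were compared over the 27022 others by limma (version 3.58.1, R version 4.3.3). The fit had an intensity trend, no block and Benjamini-Hochberg adjustment over all of them. Culture numbers were compared by limma's F test with genotype in the fit. Simulated data were used to test the culture number fit and a genotype fit with the replicate number as a block. The genotype fit without a block was not tested in this way. The labels do not say that cultures came from separate litters, so p-values measure the spread between these cultures. Deviations from the group means correlated at 0.83, 0.59 and 0.57 between same-numbered cultures, and at 0.55 and 0.49 across numbers 2 and 3. The numbers were taken to pair the cultures. Within numbers 2 and 3 this pairing is an assumption, since the values within and across them are close. Alternatives were other pseudocounts, filters, scalings and thresholds, no trend, the replicate block, numbers 2 and 3 alone and each culture left out. The members and lists were chosen with earlier results of these data known. All members were named, with up to 3 genes of each list by smallest p with the replicate block, the 3 genes nearest in pattern to a member, and Zmpste24, Xist and Eif2s3y as checks. Figures were drawn with matplotlib 3.10.9.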

Additional observations from a re-analysis of the deposited data

How the results depend on the processing

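No member probe set and no listed pathway gene was called between genotypes in any alternative, and both Sema3c and both Sema3d probe sets kept their direction in all of them. Over the whole array, 5 probe sets were called with the replicate block, 20 with replicates 2 and 3 alone and 0 to 4 with 1 culture left out, in place of 0. The block changed no call of a member. In replicates 2 and 3 alone the sign turned for Sema3a 1420416_at (-0.08) and Plxna1 1428623_at (0.03). Leaving out 1 culture gives number 1 unequal weight in the genotypes, and the log2 difference then crossed 0, ranging for Sema3a -0.21 to 0.16 (1420416_at), -0.18 to 0.42 (1449865_at), for Sema3b -0.17 to 0.51 (1431795_a_at), -0.80 to 0.56 (1416644_a_at), for Sema3e -0.64 to 0.83 (1419717_at), -0.44 to 1.0 (1427673_a_at), -0.29 to 0.82 (1442226_at), -0.29 to 0.93 (1425906_a_at), for Sema3f -0.03 to 0.36 (1438947_x_at), -0.25 to 0.01 (1425840_a_at), -0.34 to 0.14 (1420508_at), for Nrp1 -0.02 to 0.26 (1448943_at), -0.13 to 0.20 (1418084_at), -0.07 to 0.21 (1448944_at), for Nrp2 -0.14 to 0.43 (1435349_at), -0.50 to 0.61 (1456778_at), -0.25 to 0.39 (1426528_at), for Plxna1 -0.12 to 0.10 (1428623_at), for Plxna2 -0.14 to 0.36 (1453286_at), -0.33 to 0.18 (1429772_at). Without crossing 0, the same range was 0.02 to 1.29 for Sema3b 1448415_a_at, 0.13 to 0.61 and 0.13 to 0.57 for Plxna2 1455037_at and 1451753_at, 0.07 to 0.36 for Sema3a 1420417_at, 0.11 to 0.52 for Nrp1 1457198_at, 0.13 to 0.88 for Nrp2 1447343_at and 0.11 to 0.60 for Plxna1 1421232_at. The culture number call was chosen after seeing the data to be repeated on culture numbers 2 and 3 alone, where 0 member probe sets and 16 probe sets in all were called. With 1 culture left out, 12 to 19 member probe sets were called between culture numbers, and the difference of number 1 crossed 0 for Sema3c 1420696_at (-0.62 to 0.18) and Sema3a 1420417_at (-0.55 to 0.03), neither of them called. Signal near the filter limit of 39.4 limits the dim probe sets of Sema3b, Sema3d, Sema3e, Nrp2 and Plxna1.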
